A study of Mus musculus with 12 samples.

Results

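Gene expression was followed from embryonic day 10 (E10) to E10.5 in otic vesicles of mouse embryos labelled as Dlx5-null. The comparison used the 2 arrays titled as mutant vesicles at E10.5 and the 2 titled as mutant vesicles at E10, which are 4 of the 12 arrays in the series. Every gene enters as a log2 difference, E10.5 minus E10. The series, whose title asks for transcriptional targets of Dlx5 in the early inner ear, also holds 4 wild-type vesicle arrays of the same stages, used here for comparison, and 4 cell line arrays not used here. Each vesicle array was made from a pool of 4 to 8 vesicles, which the labels call a biological replicate. Embryos were staged individually by somite number, and vesicles were treated with dispase to help remove adhering mesenchyme. The labels give no strain and no description of the Dlx5 allele beyond null. With only 2 arrays in a group, precision is low throughout, and p-values measure the spread between arrays. The descriptions give both E10.5 arrays of each genotype the same replicate number. That these came from separate pools rests on the titles and was not checked.

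The otic vesicle, or otocyst, is the epithelial sac from which the inner ear forms. During this period its dorsal part begins to form the vestibular organs and its ventral part the cochlea, while neuroblasts leave the epithelium to build the cochleovestibular ganglion. Dlx5 encodes a homeodomain transcription factor of the dorsal otocyst that is required for the semicircular canals. Embryonic red blood cells circulate through the surrounding vessels at these stages.

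The Dlx5 probe set, which checks the labels, was not low in the arrays labelled null. Its log2 levels were 7.27 and 8.02 at E10 and 7.97 and 7.97 at E10.5 in the labelled-null arrays, against 6.20, 6.30, 6.12 and 6.11 in the wild-type arrays. The direction is therefore opposite to the label, and which part of the transcript the probes cover was not examined, so the groups are called labelled null throughout. Between the stages Dlx5 differed by 0.33 (SE 0.24) in the labelled-null arrays, and by -0.05 without the E10 replicate 1 arrays described next. Dlx1, another family member, stood at 8.35 and 10.07 at E10 and at 9.86 and 9.81 at E10.5. None of the 4 tested Dlx genes passed the test, and Dlx2 and Dlx6 were too dim to be tested.

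One E10 array in each genotype stood apart. Over all probe sets, the SD of log2 values was 2.33 in labelled-null E10 replicate 1 and 2.32 in wild-type E10 replicate 1, against 2.38 to 2.47 in the other 6 vesicle arrays. Xist, the RNA that silences an X chromosome in female cells, read 4.98 in labelled-null E10 replicate 1 and 9.36 in replicate 2, and 8.91 and 9.01 at E10.5. The wild-type arrays read 5.07 and 9.72 at E10. The Y-linked Eif2s3y, too dim to be tested, read 6.50 and 6.17 at E10 and 4.82 and 5.04 at E10.5 in the labelled-null arrays. Xist thus differed between E10 replicates and overlapped between stages, while Eif2s3y lay higher at E10 in both replicates, and their part in the stage differences was not tested beyond a fit with Eif2s3y as a covariate. Across genes, the gap between the 2 labelled-null E10 arrays correlated with the gap between the 2 wild-type E10 arrays at r = 0.71, so results are also given without both replicate 1 arrays of E10.

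The labelled tissue was checked against its markers. The 11 otic epithelium markers on the arrays had mean log2 levels of 8.01 and 8.56 at E10 and of 8.61 and 8.44 at E10.5. Mean levels of the markers of several other cell types were higher at E10.5. The mean of 7 erythroid markers went from 7.91 and 8.61 to 10.52 and 10.49. That of 6 endothelial markers went from 5.51 and 5.29 to 5.92 and 5.85, and that of 8 periotic mesenchyme markers from 6.09 and 6.60 to 7.04 and 6.97. For 6 otic neuroblast markers it went from 8.10 and 7.75 to 9.12 and 9.03, with 4 of them higher and 2, Neurog1 and Neurod1, lower. For 4 neural crest and glia markers it went from 8.04 and 8.21 to 8.36 and 8.30. Macrophage markers, with means of 5.18 to 5.44, and hindbrain markers, with means of 6.05 to 6.23, differed little. In pooled tissue, more cells of a type and more RNA per cell cannot be told apart.

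Of 13645 genes tested with limma in labelled-null vesicles, 3 passed a Benjamini-Hochberg adjusted p of 0.05, which is 0.0220% of the genes, and all 3 rose. They were Akap6, Hemgn and Ctse. Akap6 encodes an anchoring protein that holds protein kinase A at membranes. It read 5.97 and 5.78 at E10 and 8.08 and 8.43 at E10.5, a rise of 2.38 on the log2 scale (SE 0.18, adjusted p = 0.032), or 5.21-fold. Hemgn, which encodes hemogen, a nuclear protein of blood-forming cells, read 4.38 and 5.27 at E10 and 8.33 and 7.85 at E10.5. Its rise of 3.27 (SE 0.30, adjusted p = 0.044) is 9.61-fold. Ctse encodes cathepsin E, an aspartic protease found in red cells and in the stomach. It read 7.21 and 7.86 at E10 and 10.02 and 9.96 at E10.5, a rise of 2.46 (SE 0.23, adjusted p = 0.044), or 5.48-fold. In each of the 3 genes the stages did not overlap, which holds for 45.0% of all genes in these 4 arrays, 25.7% higher and 19.3% lower at E10.5.

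**Figure D1:**
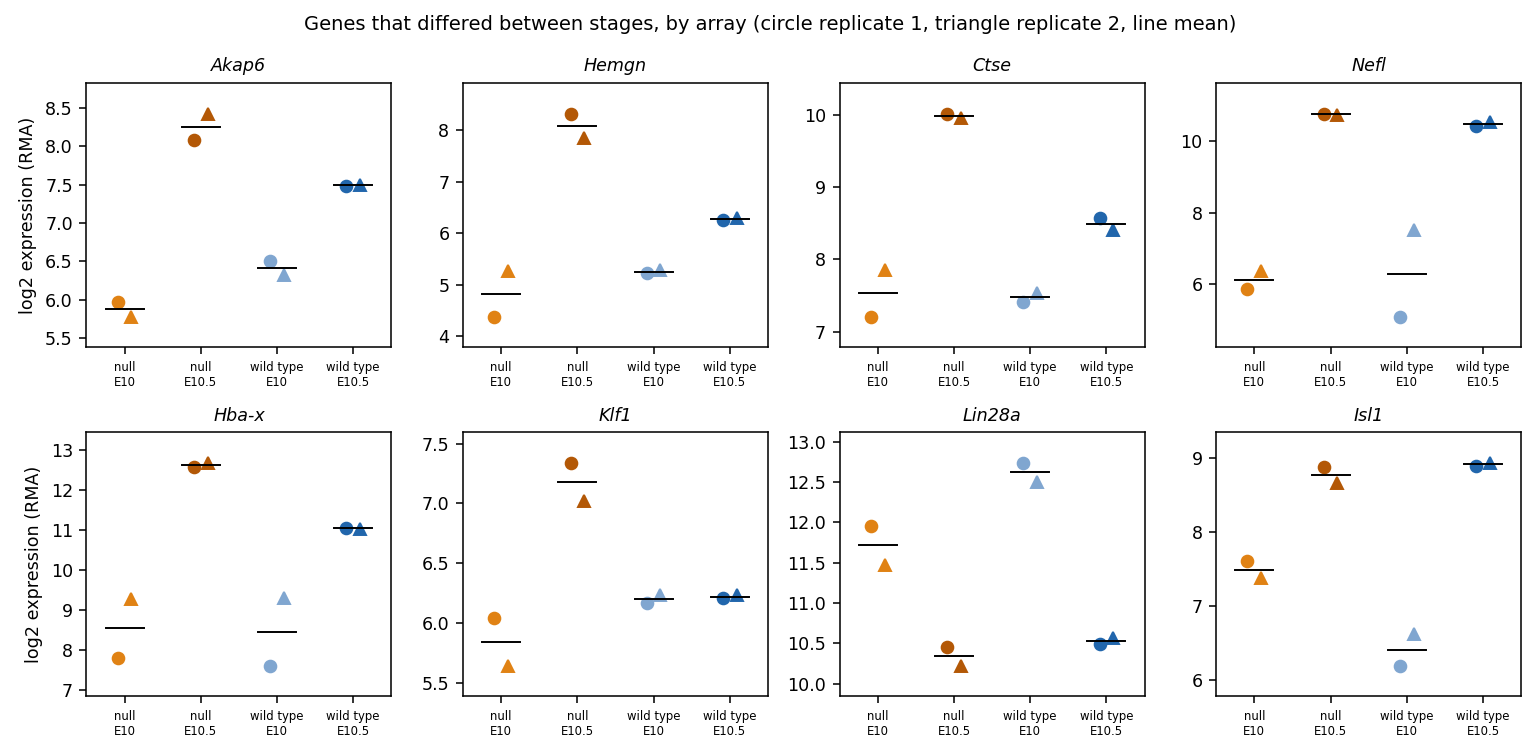
Log2 expression (RMA) of 8 genes in each of the 8 vesicle arrays, by genotype label and stage, with circles for replicate 1, triangles for replicate 2 and lines for group means. Hemgn stood at 7.85 and 8.33 in the labelled-null E10.5 arrays and at 6.29 or lower in the other 6, while Lin28a was lower at E10.5 in both genotypes.

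The 3 calls held without both replicate 1 arrays of E10, where Akap6 rose by 2.47 (adjusted p = 0.0095), Hemgn by 2.82 (0.012) and Ctse by 2.13 (0.0069), and where 288 genes were called, 140 higher and 148 lower. With the replicate number as a block, or without any 1 of the 4 E10.5 arrays, no gene was called. Rescaling the arrays to a common spread gave 44 calls, 28 higher and 16 lower, and renewed quantile normalization gave 92, 56 higher and 36 lower, so lower calls were absent only under some settings. A dimmer second probe set differed by 0.40 for Akap6 and by 0.37 for Ctse, far less than the probe set used, and over the median of their probe sets they differed by 1.39 and 1.41 and were not called.

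At an unadjusted p under 0.05, which is a description and no call, 1020 genes (7.48%) were higher and 1065 (7.81%) lower at E10.5, 15.3% in all. The median difference of all genes was 0.045. At an adjusted p under 0.10, 147 genes (1.08%) stood, 70 higher (0.513%) and 77 lower (0.564%). The genes with the smallest p after the 3 called ones are given next. Pf4, the platelet factor 4 chemokine of megakaryocytes, read 5.67 and 6.22 at E10 and 8.37 and 8.59 at E10.5 (difference 2.54, SE 0.27, adjusted p = 0.064). Dcn, which encodes the matrix proteoglycan decorin, read 5.53 and 5.42 against 7.20 and 6.87. D930028M14Rik, a gene without an assigned role, read 5.78 and 6.13 against 8.44 and 7.94. Over the median of their probe sets Dcn differed by 0.81 against 1.56, and Cadm3 by 0.72 against 1.21. Stmn2, Stmn4, Pou4f1 and Cadm3, all active in neurons, completed the first 10, with adjusted p of 0.073 each.

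Among genes lower at E10.5, none passed the threshold and the 10 with the smallest p shared an adjusted p of 0.073. Mysm1, a histone H2A deubiquitinase, read 9.68 and 9.45 at E10 and 8.41 and 8.26 at E10.5, a difference of -1.23 (SE 0.16). Tfrc, the transferrin receptor that brings iron into dividing and erythroid cells, read 10.40 and 10.52 against 9.31 and 9.21, although 4 dimmer probe sets differed by -0.155 to -0.065 and another by -1.29. Rbm28, a nucleolar RNA-binding protein gene, read 10.17 and 10.35 against 9.22 and 8.97. The stages did not overlap in any of them, which the rule that named them required. The other 7 were Crybg3, Rasa2, H2-Bl, Scrn3, Paxbp1, 1810014B01Rik and Zbtb44, with differences of -2.08 to -1.04. Several of the 10 rest on 1 probe set. Over the median of all their probe sets, Tfrc differed by -0.52, Rbm28 by -0.59 and Rasa2 by -0.74. The same value was -0.24 for 1810014B01Rik, -0.26 for Scrn3, -0.30 for Zbtb44 and 0.11 for Paxbp1.

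Genes of the red cell lineage were higher at E10.5. Of 21 tested members of an erythroid list, Hemgn rose and 16, Hemgn included, were higher at an unadjusted p under 0.05, with none lower, against 7.48% of all genes higher at that level. The median difference was 0.76, against 0.045 for all genes. Without both replicate 1 arrays of E10 the median was 0.87, with 16 higher and 1 lower at that level.

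Hba-x had the highest difference of the list, followed by Slc4a1, Hemgn and Hbb-bh1. Hba-x, the zeta-like embryonic alpha globin, read 7.80 and 9.29 at E10 and 12.59 and 12.69 at E10.5 (difference 4.09, SE 0.61, adjusted p = 0.073). Hbb-bh1, an embryonic beta-like globin, read 10.60 and 11.50 against 13.70 and 13.77. In Hbb-y, the other embryonic beta-like globin, the values were 12.21 and 12.92 against 13.81 and 14.01. All 3 were lowest in E10 replicate 1. Their stages did not overlap, and 25.7% of all genes were likewise separate and higher at E10.5 in the labelled-null arrays. The adult alpha globin Hba-a2, whose near-identical copy may share its probes, read 7.92 and 8.67 against 7.77 and 6.79.

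Genes for the red cell membrane, haem synthesis and erythroid transcription followed the same order of stages. Slc4a1, the band 3 anion exchanger of the red cell membrane, read 6.71 and 8.09 at E10 and 10.55 and 10.80 at E10.5. Alas2, the first enzyme of erythroid haem synthesis, read 5.79 and 6.66 against 8.51 and 8.21 (difference 2.13). Klf1, an erythroid zinc finger transcription factor, read 6.04 and 5.64 against 7.34 and 7.02 (difference 1.34, SE 0.19, adjusted p = 0.073). Gata1, the master regulator of the lineage, read 6.22 and 6.18 against 7.15 and 6.94. In Epor, the erythropoietin receptor gene, the values were 6.89 and 6.88 against 7.68 and 7.56. The members that differed least were Tspan33 (0.19) and Epb42 (0.03, and 0.87 in a second probe set).

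**Figure D2:**
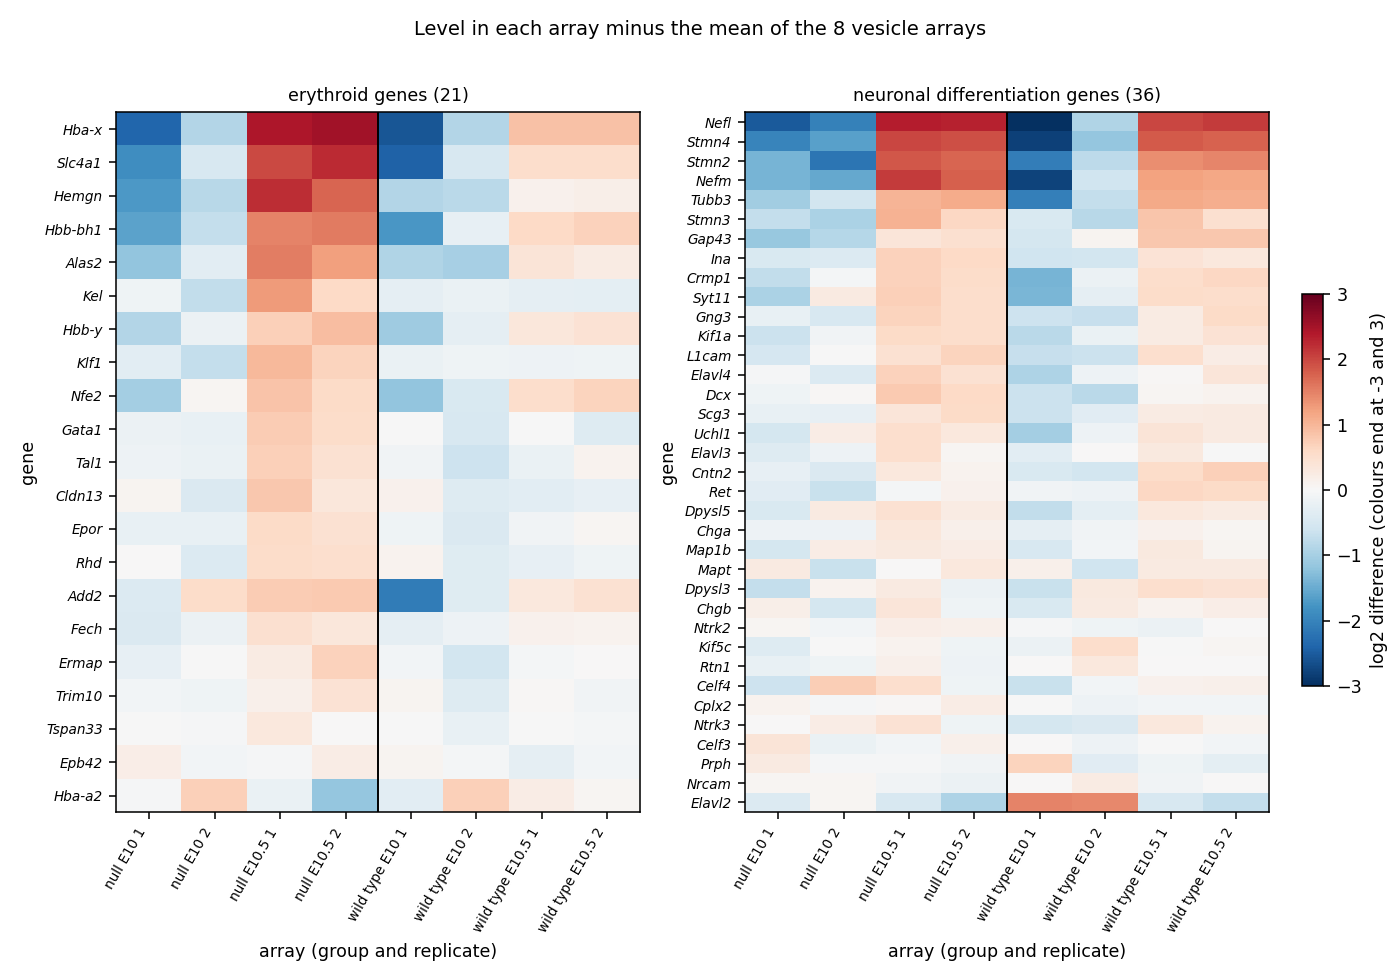
Log2 level of each tested erythroid gene (21, left) and neuronal differentiation gene (36, right) in each vesicle array, as the difference from that gene's mean over the 8 arrays, with red above and blue below the mean. In both lists most labelled-null E10.5 values lie above the mean, and for Hba-x and Slc4a1 the E10 replicate 1 arrays of both genotypes are the lowest.

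GATA1 binds the DNA word GATA in many erythroid genes, so the promoters of the members were read. RefSeq entries (GRCm38.p6) gave the 250 bases before the start of 16 of the 21 genes. A longer GATA word was searched on either strand: AGATAA, then AGATAG, next TGATAA, also TGATAG. At least 1 was present in 14 of these 16 genes, or before 14 of their 17 starts, against 26.5% of all 32851 promoters of the same length. Hba-a2, which was lower at E10.5, and Epb42, which differed by 0.03, also held the word. Gata1, which was higher, did not. A match is only a match of letters. The sequences shown belong to the called gene, the globin with the highest difference, the haem enzyme and the transcription factor, with the GATA words in capitals, each 5′ to 3′ on the gene's strand.
Hemgn, chr4:46404184-46404433, minus strand: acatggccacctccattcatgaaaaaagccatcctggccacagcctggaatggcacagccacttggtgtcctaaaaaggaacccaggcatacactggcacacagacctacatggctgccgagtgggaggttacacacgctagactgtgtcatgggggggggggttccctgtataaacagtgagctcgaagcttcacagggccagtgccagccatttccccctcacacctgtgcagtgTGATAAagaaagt
Hba-x, chr11:32276350-32276599, plus strand: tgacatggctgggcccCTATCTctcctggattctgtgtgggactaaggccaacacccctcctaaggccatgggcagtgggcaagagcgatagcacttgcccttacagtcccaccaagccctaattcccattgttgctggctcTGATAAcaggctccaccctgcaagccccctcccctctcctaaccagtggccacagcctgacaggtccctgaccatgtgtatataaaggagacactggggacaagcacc
Alas2, chrX:150547167-150547416, plus strand: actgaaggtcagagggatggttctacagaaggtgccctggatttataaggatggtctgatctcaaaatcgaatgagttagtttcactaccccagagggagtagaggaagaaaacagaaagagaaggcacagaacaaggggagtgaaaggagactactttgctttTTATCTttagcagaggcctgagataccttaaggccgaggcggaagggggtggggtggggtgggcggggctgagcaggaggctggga
Klf1, chr8:84901732-84901981, plus strand: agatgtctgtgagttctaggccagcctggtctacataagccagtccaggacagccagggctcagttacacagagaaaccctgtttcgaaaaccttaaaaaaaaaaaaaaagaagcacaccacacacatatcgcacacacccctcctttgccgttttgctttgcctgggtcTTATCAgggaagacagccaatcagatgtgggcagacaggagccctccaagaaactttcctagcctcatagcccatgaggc
The Hemgn word begins 13 bases before the start. Hba-x holds 2 words, and those of Alas2 and Klf1 begin 86 and 80 bases before the start and read on the other strand.

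Neuronal genes were the other large group with higher levels at E10.5. Of 36 tested neuronal differentiation genes, 19 were higher at an unadjusted p under 0.05 and none lower, against 7.48% and 7.81% of all genes. No member passed the adjusted threshold. The median difference was 0.56, and 0.61 without both replicate 1 arrays of E10, where 21 were higher and none lower at that level. Nefl, the light neurofilament chain, read 5.88 and 6.37 at E10 and 10.76 and 10.71 at E10.5, a difference of 4.61 (SE 0.66, adjusted p = 0.073). It was the largest difference of the 13645 genes in either direction. Nefm, the medium neurofilament chain, read 7.19 and 7.05 against 10.69 and 10.38.

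Regulators of the neuronal cytoskeleton had similar values. Stmn4, a stathmin-family protein that binds tubulin, read 6.69 and 7.02 at E10 and 10.67 and 10.60 at E10.5, and Stmn2 read 6.94 and 6.13 against 10.18 and 10.07. Tubb3, the neuronal beta tubulin, read 8.99 and 9.48 against 11.05 and 11.15. The stages were far apart in all of them compared with the gap between replicates. When the 4 labelled-null arrays were fitted alone, Nefl, Nefm, Stmn2 and Stmn4 passed the adjusted threshold as higher and Lrrfip1 as lower, and Akap6, Hemgn and Ctse did not.

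Transcription factors of the neuroblast sequence differed in both directions. Of 19 tested, 3 were higher and 1 lower at an unadjusted p under 0.05, against 7.48% and 7.81% of all genes, with a median of 0.065. Pou4f1 (Brn3a), which marks sensory neurons after they leave the epithelium, read 8.14 and 7.65 at E10 and 9.48 and 9.44 at E10.5 (difference 1.56, adjusted p = 0.073). Isl1, a LIM homeodomain gene of sensory neurons, read 7.60 and 7.37 against 8.88 and 8.66. Neurog1, which starts the neuroblast programme in the epithelium, read 6.62 and 6.61 against 5.98 and 5.90, a difference of -0.68. Neurod1, which acts after it, read 10.31 and 9.27 against 9.12 and 8.96. The Neurod1 difference of -0.75 was -0.23 without the replicate 1 arrays, and that of Neurog1 was -0.36 over the median of its probe sets.

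Genes of otic identity were split. Of 18 tested members, 4 were higher and 2 lower at an unadjusted p under 0.05, against 7.48% and 7.81% of all genes, and the median was 0.16. Pax8, an early otic paired-box gene, read 7.63 and 8.07 at E10 and 7.21 and 6.85 at E10.5 (difference -0.82, SE 0.21, adjusted p = 0.16). Eya1, a cofactor required for the otic vesicle, read 8.96 and 9.10 against 8.56 and 8.42. Fbxo2, a ubiquitin ligase subunit enriched in the inner ear, read 8.99 and 10.15 against 10.78 and 10.56. The Fbxo2 difference of 1.10 was 0.52 without the replicate 1 arrays, and that of Pax8 was -0.47 over the median of its probe sets. The prosensory gene Sox2 differed by -0.58 and the otoconial matrix gene Oc90 by 1.19, each with an unadjusted p under 0.05, and Oc90 by 0.63 without the labelled-null replicate 1 array of E10.

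In patterning genes of the otocyst the size of the differences depended on the E10 replicate 1 array. At an unadjusted p under 0.05, 4 of 10 ventral genes were higher and 1 lower, and 3 of 13 dorsal genes were higher and none lower, against 7.48% and 7.81% of all genes. The medians were 0.58 and 0.45. Without both replicate 1 arrays of E10 these medians were 0.29 and 0.15, with 7 of 10 ventral and 8 of 13 dorsal members higher. Emx2, a homeobox gene of the ventral and medial otocyst, read 5.41 and 7.43 at E10 and 8.36 and 8.37 at E10.5, a difference of 1.95 that was 0.94 without replicate 1. Otx2, a ventral homeobox gene, read 4.18 and 5.28 against 5.84 and 5.51, a difference of 0.94 that was 0.40 without replicate 1. Otx1, needed for the lateral canal, read 7.32 and 9.03 against 9.45 and 9.44, a difference of 1.27 that was 0.42 without replicate 1. In the dorsal Hmx2 the values were 5.61 and 7.05 against 7.19 and 7.20, and the difference of 0.86 was 0.14 without replicate 1. In Prdm16, another member of the dorsal list, the difference was 1.25, and 0.61 without replicate 1 and 0.30 over the median of its probe sets.

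Signalling genes are given by role, and their counts are again those at an unadjusted p under 0.05, against 7.48% of all genes higher and 7.81% lower. At that level the retinoic acid list had 7 of 18 members higher and 2 lower, with a median of 0.43. Aldh1a3, which makes retinoic acid, read 6.63 and 7.47 at E10 and 8.99 and 8.87 at E10.5 (difference 1.88, adjusted p = 0.13). Stra6, the receptor that takes up retinol, read 6.91 and 7.62 against 8.92 and 8.62, and the receptor genes Rxrg, Rarb and Rara differed by 0.83, 0.60 and 0.47. Aldh1a2 differed by 1.60, and by 0.73 without the replicate 1 arrays. Nrip1, a nuclear receptor corepressor, differed by -1.15, and by -0.56 over the median of its probe sets. Aldh1a1 differed by -1.09, and by -0.65 without replicate 1.

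At an unadjusted p under 0.05 the Wnt list had 5 of 42 members higher and 9 lower, with a median of -0.083. Among the ligands, Wnt4 read 6.38 and 9.29 at E10 and 11.01 and 10.91 at E10.5. Its difference of 3.12 (SE 0.89, adjusted p = 0.18) was 1.67 without the replicate 1 arrays. Wnt7b differed by 1.21, and by 0.60 without them. The secreted inhibitor Sfrp1 read 7.96 and 8.73 against 9.70 and 9.56, a difference of 1.28 that was 0.58 over the median of its probe sets. Lower values came from receptors and targets: Lgr4 differed by -0.85, Fzd7 by -0.46, and the Wnt-responsive genes Apcdd1 and Sp5 by -0.83 and -0.63. Dkk1, a secreted inhibitor of the Wnt coreceptors, differed by -0.76. Over the medians of their probe sets Lgr4, Fzd7 and Dkk1 differed by -0.33, -0.23 and -0.21.

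In the BMP list, at an unadjusted p under 0.05, 3 of 23 members were higher and 1 lower, with a median of 0.28. Fst, the follistatin that binds activins and BMPs, read 4.95 and 4.90 at E10 and 6.58 and 6.11 at E10.5 (difference 1.42, adjusted p = 0.077). A second Fst probe set of nearly the same brightness differed by 0.64. Bmp6 differed by 0.87, and by 0.47 without the replicate 1 arrays. In the Notch list, at the same level, 3 of 25 were higher and 3 lower, with a median of 0.08. The ligands Jag1 and Dll1 differed by -1.10 and -0.80, and Mib1, the ubiquitin ligase that activates ligands, by -1.0, which was -0.26 over the median of its probe sets. Notch4, a receptor of endothelial cells, read 8.21 and 9.41 against 9.76 and 9.78, a difference of 0.96 that was 0.36 without the replicate 1 arrays and -0.17 over the median of its probe sets.

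Genes of cells around the vesicle were higher as well. Of 22 tested endothelial genes, 10 were higher and none lower at an unadjusted p under 0.05, against 7.48% and 7.81% of all genes, with a median of 0.52. Eng, a TGF-beta coreceptor of endothelium, read 6.69 and 7.0 at E10 and 8.27 and 8.00 at E10.5, while a second probe set of the same brightness differed by only 0.17. Tie1, an endothelial receptor tyrosine kinase, read 4.80 and 4.59 against 6.22 and 5.73. Pecam1, an endothelial junction protein, read 5.49 and 5.61 against 6.53 and 6.48. The stages were separate in the values given for these 3 genes, and 25.7% of all genes were likewise separate and higher at E10.5. In the receptor Kdr (7.33 and 6.61 against 6.98 and 7.04) they overlapped. The erythroid values stood beside these endothelial ones in the same arrays, and their part in each other was not tested.

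Of 23 periotic mesenchyme genes, 7 were higher and none lower at an unadjusted p under 0.05, against 7.48% and 7.81% of all genes, with a median of 0.27. Lum, the keratan sulphate proteoglycan lumican, read 5.59 and 5.78 at E10 and 7.94 and 7.33 at E10.5. Col3a1 read 6.39 and 7.49 against 8.41 and 8.09, a difference of 1.31 that was 0.76 without the replicate 1 arrays and 0.68 over the median of its probe sets. The mesenchymal transcription factors Prrx1 and Pou3f4 differed by 0.14 and 0.21, and Tbx18 by -1.19. Of 46 basement membrane and matrix genes, 12 were higher and 1 lower at an unadjusted p under 0.05, with a median of 0.22. Col9a2, a chain of collagen IX, read 9.01 and 9.83 against 11.36 and 11.42 (difference 1.97, adjusted p = 0.08). Hapln1, which links hyaluronan to proteoglycans, read 6.46 and 6.64 against 7.70 and 7.57, a difference of 1.08 that was 0.50 over the median of its probe sets. Sparc read 9.14 and 11.81 against 12.68 and 12.55, a difference of 2.14 that was 0.81 without the replicate 1 arrays. Among 14 macrophage genes 1 was higher and none lower at that level, with a median of 0.058.

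Growth-related groups were lower at E10.5, although no member passed the adjusted threshold. The oncofetal RNA-binding gene Lin28a, which blocks the maturation of let-7, read 11.96 and 11.47 at E10 and 10.46 and 10.22 at E10.5 (difference -1.38, SE 0.21, adjusted p = 0.073). Prtg, an immunoglobulin superfamily receptor of early neural tissue, read 12.18 and 11.46 against 10.15 and 10.16, a difference of -1.67. Nr6a1, an orphan nuclear receptor of early embryos, read 8.72 and 8.35 against 7.54 and 6.85, but differed by 0.19 over the median of its probe sets. Of 19 tested members of this list 4 were lower and none higher at an unadjusted p under 0.05, with a median of -0.20, against 7.81% of all genes lower and 7.48% higher.

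Of 63 mitosis and spindle genes, 20 were lower and 1, Pttg1, was higher at an unadjusted p under 0.05, against 7.81% and 7.48% of all genes. The median was -0.26. Without both replicate 1 arrays of E10, 31 of 62 were lower and 1 was higher at that level. Bub1, a spindle checkpoint kinase, read 8.83 and 10.06 at E10 and 8.32 and 7.71 at E10.5 (difference -1.43, adjusted p = 0.24), and a second probe set differed by 0.26. Ect2, needed for cytokinesis, read 8.85 and 8.30 against 7.59 and 7.39. Kif11, the spindle motor Eg5, read 9.19 and 9.15 against 8.46 and 8.02. Of 50 DNA replication genes 8 were lower and none higher at an unadjusted p under 0.05, with a median of -0.19. Among them, the origin subunit gene Orc1 differed by -0.60 and the replication checkpoint kinase gene Chek1 by -0.76. Over the medians of their probe sets these were -0.25 and -0.37.

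Ribosome biogenesis genes had 19 of 58 members lower and 1, Ubtf, higher at an unadjusted p under 0.05, against 7.81% and 7.48% of all genes, with a median of -0.24. Dkc1, the pseudouridine synthase dyskerin, read 12.49 and 12.26 at E10 and 11.40 and 11.59 at E10.5 (difference -0.88, SE 0.17, adjusted p = 0.10). Gnl3 (nucleostemin) read 10.23 and 9.62 against 9.10 and 9.11, a difference of -0.82 that was -0.52 without the replicate 1 arrays. Of 20 heat shock and chaperone genes 4 were lower and none higher at that level, and Hsph1 read 11.73 and 11.42 against 10.75 and 10.77. In the cholesterol list 4 of 19 were lower and 1 higher at that level. Its member Idi1, which isomerises isopentenyl diphosphate, read 11.56 and 10.89 against 9.88 and 9.60 (difference -1.49, adjusted p = 0.08). The medians of the heat shock and cholesterol lists were -0.26 and -0.20. In the replication, mitosis, ribosome biogenesis, heat shock, cholesterol and Lin28 lists the median was below 0 in all 22 runs of the labelled-null comparison, the main run included. Runs that changed only the threshold or the moderation, or added the replicate block to the 8 arrays, could not move the median. Other runs left out a wild-type array, used the labelled-null arrays alone or changed the filter on dim genes. These kept all labelled-null arrays and could move it only through the choice of probe sets or members.

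**Figure D3:**
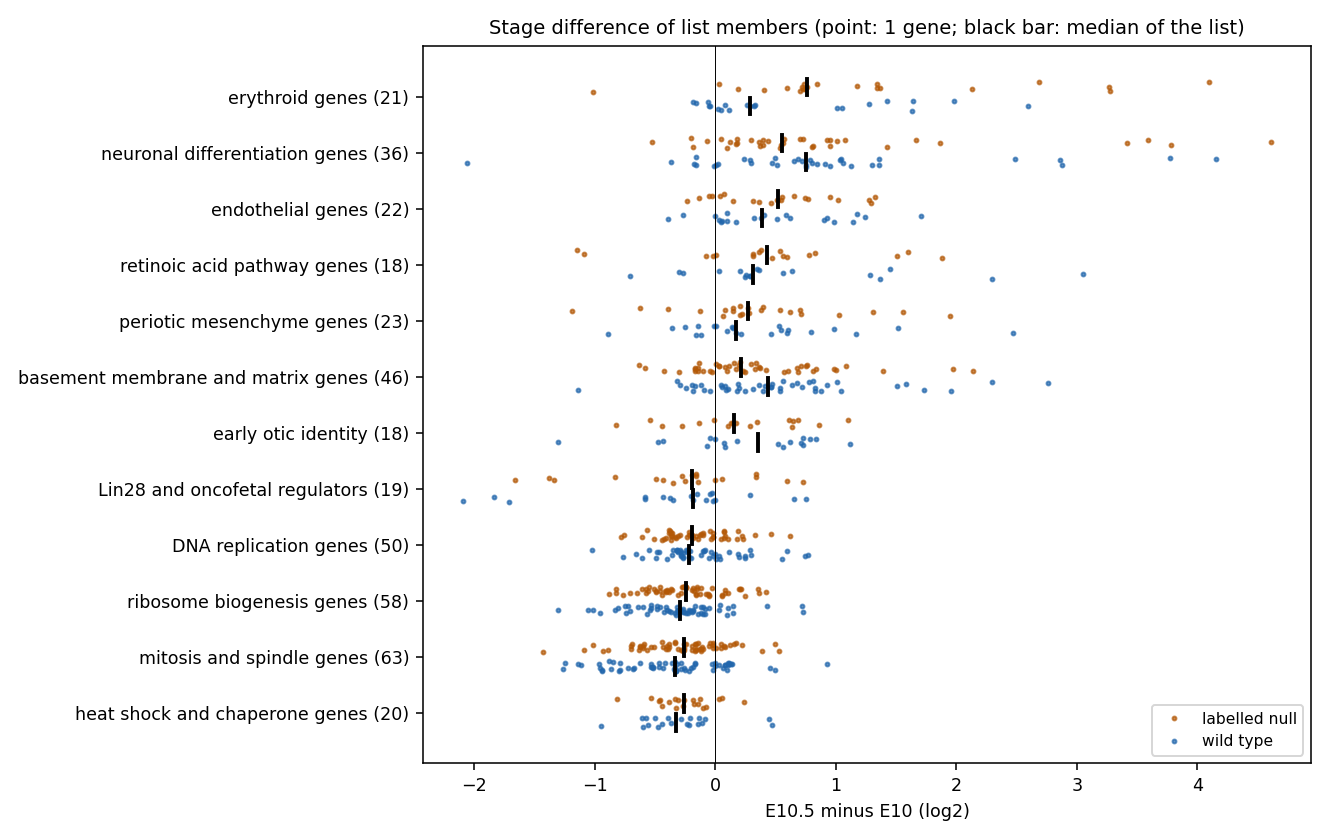
Log2 difference E10.5 minus E10 of every tested member of 12 gene lists (1 point a gene) in labelled-null (orange) and wild-type (blue) vesicles, with the list median as a black bar and the number of members beside the name. The erythroid median was 0.76 in labelled-null and 0.28 in wild-type vesicles, and the bars of the lower groups lie close together in both.

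The same stages of wild-type vesicles were compared to see where the labelled-null step differed. In wild-type vesicles limma called 296 genes (2.17%), 160 higher (1.17%) and 136 lower (0.997%), and 923 (6.76%) at an adjusted p under 0.10. Of the 160, 157 were also higher in labelled-null vesicles, with median differences of 1.30 in wild type and 0.88 in labelled null. Of the 136, 134 were lower in both, with medians of -1.06 and -0.76. These genes were chosen for their wild-type difference. Those chosen in labelled-null vesicles at an adjusted p under 0.10 had medians of 1.30 in labelled null and 1.18 in wild type among the 70 higher, and of -1.06 and -0.92 among the 77 lower. The differences correlated across genes at r = 0.80 and at r = 0.66 without both replicate 1 arrays of E10. With E10 replicate 2 in labelled null and replicate 1 in wild type r was 0.36, and the other way round 0.64. The comparisons share no arrays, but their replicate 1 arrays of E10 deviate together, and genes are not independent replicates.

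**Figure D4:**
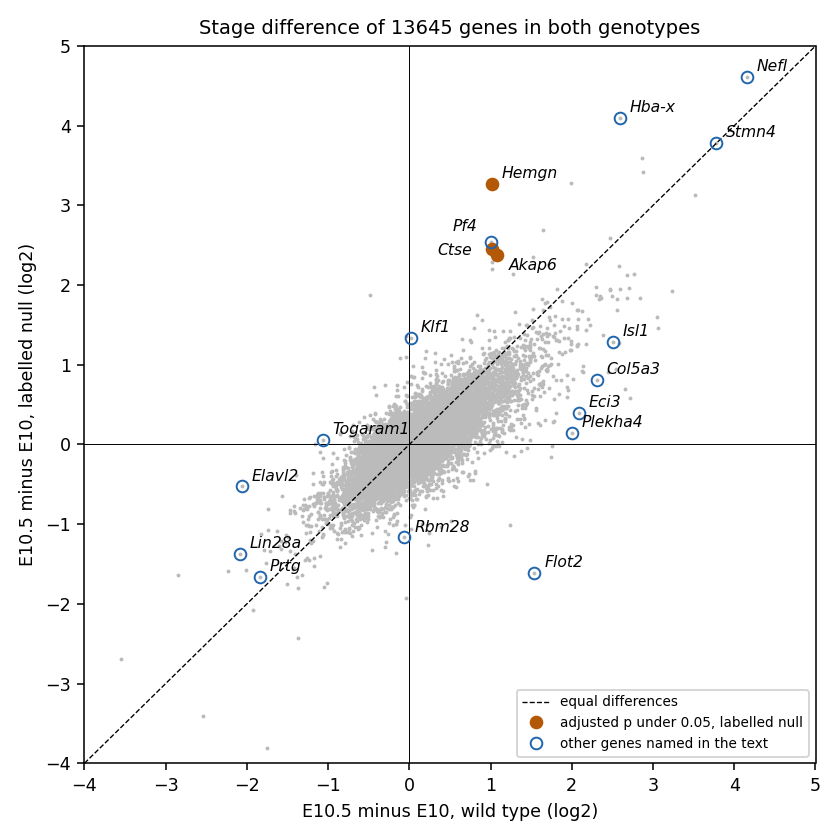
Log2 difference E10.5 minus E10 of 13645 genes in wild-type (horizontal) and labelled-null (vertical) vesicles, with filled points for the 3 genes that passed in labelled-null vesicles, open points for other named genes and a dashed line of equal differences. Most genes lie along the line (r = 0.80), with Hemgn and Klf1 above it and Flot2, Eci3 and Plekha4 below it.

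The test of the difference between the steps, the limma interaction of stage and label, called no gene, and 269 genes (1.97%) had an unadjusted p under 0.05, 75 with a higher (0.550%) and 194 with a lower (1.42%) labelled-null step. The smallest adjusted p was 1. The steps of individual genes below are therefore values that were not told apart over all genes. Hemgn rose by 3.27 in labelled-null vesicles and differed by 1.01 in wild type, where it read 5.22 and 5.29 at E10 and 6.25 and 6.29 at E10.5. Akap6 differed by 1.08 in wild type and Ctse by 1.02. Klf1 differed by 0.02 in wild type, with 6.17 and 6.23 at E10 and 6.21 and 6.23 at E10.5, and in labelled-null vesicles by 1.34. The wild-type levels of Klf1 lay between those of the labelled-null stages.

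Over the erythroid list, 6 of 21 members had a higher labelled-null step at an unadjusted p under 0.05 and none a lower one. Of all genes, 0.550% had a higher and 1.42% a lower step at that level. Gata1 and Kel, a blood group protein gene of the red cell membrane, differed by 0.84 and 1.36 in labelled-null and by 0.04 and -0.04 in wild-type vesicles. Hba-x differed by 2.60 in wild type, with 7.61 and 9.30 at E10 and 11.06 and 11.04 at E10.5. At E10 its values overlapped between the genotypes and at E10.5 they did not. Neuronal genes had similar steps in both, 3.78 and 3.77 for Stmn4 and 4.61 and 4.16 for Nefl, and the wild-type list median was 0.75.

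Some neuronal and otic regulators differed more in wild type. Isl1 read 6.19 and 6.62 at E10 and 8.89 and 8.93 at E10.5 in wild type, a difference of 2.50 against 1.28. The labelled-null E10 values lay above the wild-type ones, while the E10.5 values were close. Lin28a read 12.74 and 12.50 against 10.49 and 10.57 in wild type, a difference of -2.09 against -1.38. Elavl2, a neuronal RNA-binding protein gene, differed by -2.06 in wild type and by -0.53 in labelled null, and Otx2 by 2.54 against 0.94. Dkk1 differed by 0.06 in wild type against -0.76.

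The genes with the smallest interaction p and a lower labelled-null step were Eci3, Plekha4, Ifi35, Flot2 and Col5a3. Flot2, a lipid raft scaffold gene, read 8.08 and 8.89 at E10 and 7.19 and 6.56 at E10.5 in labelled-null vesicles, and 6.52 and 7.40 against 8.46 and 8.54 in wild type. The directions were opposite, and a second Flot2 probe set differed by -0.47 in labelled-null vesicles against -1.61 for the set used. Plekha4 read 10.70 and 10.91 against 10.97 and 10.93 in labelled null, and 8.92 and 9.42 against 11.14 and 11.21 in wild type, but other Plekha4 probe sets differed by 0.63, 0.49 and -0.18 in labelled null, against 0.14 for the set used. Eci3, a peroxisomal enoyl-CoA isomerase gene, differed by 0.40 against 2.08, and Col5a3, a collagen V chain, by 0.81 against 2.31, with 0.21 in labelled null over the median of its probe sets. Togaram1, of the primary cilium, was on the other side, with 0.06 in labelled null and -1.06 in wild type.

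Interferon response genes had 5 of 20 members with a lower labelled-null step at an unadjusted p under 0.05 and none with a higher one. The shares of all genes at that level were 1.42% lower and 0.550% higher. Their medians were 0.16 in labelled-null and 0.42 in wild-type vesicles. Ifi35 differed by 0.07 in labelled null (6.29 and 6.31 at E10, 6.35 and 6.40 at E10.5) and by 1.39 in wild type. A second Ifi35 probe set of nearly the same brightness differed by 1.34 in labelled null. Without both replicate 1 arrays of E10 the brightest probe set was chosen anew, and Ifi35 differed there by 0.94. The values of the first set given above do not yield that difference, so another probe set stood for the gene in that run. Usp18, which removes the ubiquitin-like ISG15, differed by 0.30 and 1.67, and Oas1a, a sensor of double-stranded RNA, by 0.46 and 1.39. Without E10 replicate 1 the labelled-null values of Usp18 and Oas1a were 0.11 and 0.22. Ifitm3 differed by 1.69 in labelled null, and by 0.61 without the replicate 1 arrays, against 2.06 in wild type.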

How the data were processed

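Each RNA sample was hybridised to its own Affymetrix mouse array. Values in the deposited table are log2 levels of 45101 probe sets, made by the authors with RMA and Affymetrix Expression Console per the submitters' processing notes (versions not given in the sources used here). This summary shrinks differences of dim probe sets. Without detection calls, how far a probe set lies above background is not known.

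Of the probe sets, 34958 list 1 gene, 932 several and 9211 none. The brightest probe set stood for each of 18194 genes, and the dimmest 25% of genes were left out, leaving 13645. Symbols follow RefSeq (GRCm38.p6). Group means of the 8 vesicle arrays were fitted with limma 3.58.1 in R 4.3.3 (4 residual degrees of freedom), with Benjamini-Hochberg adjustment at 0.05.

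In simulated data for the labelled-null comparison over 13645 genes, limma called 35.0% of genes changed by 1 and 80.0% of genes changed by 2 on the log2 scale. Only 100 genes of each size were changed, and the simulated noise was independent between genes and arrays. The E10 replicates of the real data deviate together, so these shares need not hold for them. No pair of arrays shared over 2.78% of values. Replicate deviations correlated at r = -0.37 between the labelled-null stages and at 0.71 between the genotypes at E10, so numbers were not used as pairs. Numbers follow the titles, since the descriptions give both E10.5 arrays of each genotype the number 1.

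Members, the 38 gene lists and the naming rule were chosen with earlier results of these data known. The rule names up to 12 genes past the threshold per direction, filled to 10 by smallest p among genes whose arrays do not overlap and differ by at least 0.5, 5 per direction for the interaction, and up to 4 members of each of 20 lists. Other members, and the genes of small alternative counts, were named after their values were seen.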

Additional observations from a re-analysis of the deposited data

How the results depend on the processing

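The main counts, with 3 labelled-null, 296 wild-type and 0 interaction calls, depended on the processing, and the causes were not tested. For the labelled-null step limma called 5 genes in the labelled-null arrays alone, 1 with the dimmest 50% left out, 11 over probe set medians, 20 over single probe sets, 92 after quantile normalization, 44 after scaling, 103 (41 higher, 62 lower) with trend and robust moderation, 10 with Eif2s3y as a covariate, 288 without both E10 replicate 1 arrays and 147 at an adjusted p under 0.10, a threshold chosen after seeing the data. For the wild-type step the counts were 999 after quantile normalization, 710 after centring, 551 after scaling, 628 with trend and robust moderation, 3 with the covariate, 1689 without both E10 replicate 1 arrays and 923 at 0.10. The interaction called 0 genes in every alternative but 1, without both E10 replicate 1 arrays, where it called 3: Spata5l1, Tmem267 and Akr1b8. Leaving out 1 array gave 0 to 30 labelled-null, 0 to 873 wild-type and 0 interaction calls.

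With the replicate number as a block the labelled-null step had 0 calls (smallest adjusted p 0.075) and the wild-type step 115. Numbers went together between the genotypes at E10 (r = 0.71) but not between the stages compared (r = -0.37 in labelled null, -0.096 in wild type), and crossing them, chosen after seeing the data, gave 0.

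Some differences of genes that had not passed changed sign. Without the labelled-null E10 replicate 1 array, alone or with the wild-type one, Dlx1 differed by -0.23, Dlx5 by -0.05, Dlx4 by 0.22 and Xist by -0.40, and without replicate 2 instead by 1.49, 0.70, -0.55 and 3.98. With the covariate the values were -0.087 for Plekha4, -0.044 for Ifi35, 0.17 for Dlx4 and -0.50 for Xist. Over probe set medians they were 0.11 for Paxbp1, -0.17 for Notch4, 0.19 for Nr6a1 and 0.15 for Hspa5. After centring and after scaling Togaram1 differed by -0.035 and -0.041, and Ifi35 by -0.015 and -0.022.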

Other observations

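Probe sets listed with no gene were tested apart from the comparison. Of 7605 such probe sets bright enough to test, limma called 4 higher and 3 lower at E10.5 in labelled-null vesicles, and 142 were higher and 370 lower at an unadjusted p under 0.05. They are unnamed here.

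For several other groups, the counts of members that differed in labelled-null vesicles at an unadjusted p under 0.05 are given here. Of 14 ion transport and otoconia genes 3 were higher and none lower, among them Car13, a carbonic anhydrase gene that differed by 1.69 (0.48 over the median of its probe sets), and Tecta, a gene of the tectorial membrane, by 0.59. Of 38 axon guidance genes 3 were higher and 7 lower, and of 13 hedgehog pathway genes 3 were higher and none lower. Of 32 glycolysis and hypoxia genes 2 were higher and none lower, and of 18 p53 target and apoptosis genes 1 was higher and 2 lower. The higher and lower counts were 2 and 0 of 9 for neural crest and glia, 1 and 1 of 8 for hindbrain, 2 and 2 of 19 for surface ectoderm, 2 and 0 of 12 for muscle, and 2 and 1 of 16 for cell cycle exit. They were 2 and 1 of 17 for Hox genes, 2 and 0 of 19 for immediate early genes, 5 and 0 of 29 for amino acid starvation and unfolded protein genes, 2 and 1 of 23 for the FGF pathway and 1 and 3 of 15 for prosensory genes. All stand against 7.48% of all genes higher and 7.81% lower.

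The largest differences toward E10 were chosen after their values were seen. Tmem87a read 9.26 and 10.48 at E10 and 5.86 and 6.27 at E10.5 in labelled-null vesicles, and 6.01 and 9.65 in the wild-type E10 arrays. Lrrfip1 read 10.04 and 9.78 against 6.65 and 6.35, but differed by 0.15 over the median of its probe sets. Neither passed the adjusted threshold in the main fit of the 8 vesicle arrays. With Eif2s3y as a covariate both did, Tmem87a at -5.48 (limma adjusted p = 0.014) and Lrrfip1 at -4.69 (0.0085).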
